A study of Mus musculus with 77 samples.

Results

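Ribosome-bound RNA of the glia of the mouse dorsal root ganglion (DRG) was compared with the RNA of the whole ganglion it came from. The glial RNA was pulled down from naive (uninjured) Dhh-Cre RiboTag mice with an antibody to the HA tag, and the input was RNA of the whole lysate. The comparison used 5 of the series' 77 samples, 2 pull-downs (replicates 1 and 3) and 3 inputs. Replicate 2 of the naive Dhh pull-downs is named in the labels, but no counts were matched to it, so it was not analysed here. The study's methods mention that outliers were removed, and whether this library was one is not stated. The pull-down and input tables share 14544 genes, and 10206 of them had a mean FPKM (fragments per kilobase scaled to depth) above 1 and were tested. The mice of both groups were ICR and carried the RiboTag allele (HA-tagged Rpl22, expressed after Cre recombination) in homozygous form and Dhh cre in heterozygous form. By the study's methods they were adult males. The labels name the cell type Glia, and the marker lists below bear on that name. For reference, the PGK line (C57BL/6, Cre active in all cells) and the Isl1 line (ICR, Cre active in sensory neurons), each also with homozygous RiboTag and a heterozygous cre, gave 3 pull-downs and 3 inputs of naive ganglia each. Pull-downs from ganglia without Cre were not analysed here.

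Schwann cells wrap the axons of the peripheral nervous system, either as compact myelin around large axons or as thin sleeves around bundles of small ones, while satellite glia form a sheath around each sensory neuron soma. Both descend from the neural crest, depend on the transcription factor Sox10 and on neuregulin signals through Erbb2 and Erbb3, and lie on a basal lamina. Desert hedgehog (Dhh) is a ligand that the Schwann cell lineage secretes and that patterns the sheath around nerves. The Dhh-Cre driver tags the ribosomes of cells in which it is or has been active, so Schwann cells and satellite glia enter 1 pull-down and were not separated. The ganglia are bulk samples, and how many cells of a type they held and how much RNA each cell held cannot be told apart.

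The total count per library was 43302101 and 54013865 in the pull-downs and 29710143 to 35913038 in the inputs. Whether replicates are separate animals is not in the labels, so the p-values rest only on the spread seen among libraries. That spread was estimated over all 29 naive pull-down and input libraries of 5 lines, the Adv and Runx3 lines included. By the study's methods the Adv mice carried the RiboTag allele in heterozygous form. Input replicate 2 of the Dhh line stood apart from the other Dhh inputs. Its summed neutrophil markers (7 genes) were highest, at 76.7, 436 and 99.9 CPM in inputs 1, 2 and 3, and its summed erythrocyte markers (6 genes) were at 182, 1183 and 239 CPM, while the pull-downs held 8.35 and 4.20 CPM of the former and 15.1 and 12.1 CPM of the latter. The glial genes Dhh, Erbb3 and Dag1 were lowest in the same input. The numbers of higher and lower genes in each list were repeated without it, and those that changed are given beside the list. Between the pull-downs, the summed melanocyte markers (3 genes) were at 17.7 and 217 CPM, against 1.66, 2.85 and 9.22 CPM in the inputs, replicate 3 standing far above the other libraries.

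The driver gene itself was enriched. Dhh (chr15:98881615-98898562 in RefSeq, build mm10) stood at 480.2 and 619.9 CPM in the pull-downs and 44.8, 15.9 and 33.0 CPM in the inputs. All pull-down values lay above all input values, and the log2 change was 4.14 ± 0.42 (SE from edgeR's quasi-likelihood test, adjusted p = 7.69e-09 by the Benjamini-Hochberg method). CPM here are a gene's counts relative to library size, with edgeR's TMM factors, and changes are pull-down over input on the log2 scale. Rpl22, whose tagged form carries the HA epitope, was at 180.0 and 143 CPM in the pull-downs and 158, 219.7 and 161 CPM in the inputs and so overlapped between the fractions, with a log2 change of -0.15 ± 0.26 (adjusted p = 0.598). The counts do not separate the tagged from the untagged form of this gene.

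Most of the transcriptome differed between the fractions. Of 10206 genes, 8682 passed an adjusted p under 0.1 (85.1%), of which 4393 were higher in the pull-down (43.0%) and 4289 lower (42.0%). Tested against a null of a change within 2-fold (glmTreat), 2219 were higher (21.7%) and 2551 lower (25.0%). The median log2 change of all genes tested was 0.04. TMM scaling takes most genes as unchanged, so this median and the near-even split depend on the scale. A shift common to all genes cannot be seen here. For 8895 of the 10206 genes the pull-downs lay all above or all below the inputs. The shares called, and this number for statements on overlap, are the background against which the counts of each gene list are to be read. Among genes past 2-fold with a mean count of at least 50 and no overlap between the fractions, the 10 largest rises were those of Erbb3, Gpam, Col28a1, Dag1, Chdh, Cdh19, Tyrp1, Plekha7, Pex11a and Sema3g. They included the neuregulin receptor Erbb3 (6.14 ± 1.09), the laminin receptor dystroglycan (Dag1, 5.02 ± 1.00), the Schwann cell collagen Col28a1 (5.05 ± 0.52) and the glial cadherin Cdh19 (4.90 ± 0.69). Gpam (5.77 ± 0.97), which starts the synthesis of glycerolipids, Chdh (4.94 ± 0.54), which oxidises choline, and Pex11a (4.78 ± 1.01), a peroxisome protein, take part in lipid and choline handling. Plekha7 (4.83 ± 0.68) acts at adherens junctions and Sema3g (4.62 ± 0.57) is a secreted semaphorin. All 10 were also above their own inputs in the all-cell PGK line, by 0.26 (Tyrp1) to 2.65 (Erbb3). There Gpam was at 2.39, Dag1 at 1.68 and Col28a1 at 0.97. Each rose more in the Dhh line, by the comparison of lines described below. The filter averages all 29 libraries, these pull-downs included, so genes scarce in the inputs could pass it through their pull-down level. Mean input levels per kilobase of transcript were 0.232 CPM for Erbb3, 0.711 for Gpam and 0.658 for Chdh. They were 0.400 for Plekha7 and 0.424 for Pex11a. The ranking of such genes is not independent of the filter. Tyrp1, an enzyme of pigment cells, was at 16.2 and 215 CPM in the pull-downs and 1.16, 2.55 and 8.21 CPM in the inputs (4.86 ± 0.86). It was the only melanocyte marker tested, and without pull-down replicate 3 its change was 2.05 ± 0.79 and still passed.

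The 10 largest falls were those of Camp, Lypd2, Ccl9, Chi3l3, Uts2d, Laptm5, Gpihbp1, Ctla2a, Agtr1b and Inmt. Camp, the neutrophil granule gene of cathelicidin, stood at 0.860 and 0.338 CPM in the pull-downs and 13.8, 97.8 and 14.3 CPM in the inputs (-6.15 ± 1.28, adjusted p = 0.000153). Without input replicate 2, its highest sample, the change was -4.57 ± 1.10 and still passed. Laptm5, a lysosomal protein of blood cells, stood at 1.29 and 1.14 CPM in the pull-downs and 22.0, 85.7 and 34.5 CPM in the inputs (-5.28 ± 0.83, and -4.54 ± 0.76 without input replicate 2). Ccl9, a chemokine of myeloid cells (-5.53 ± 0.84), Chi3l3, a chitinase-like protein of macrophages (-5.52 ± 1.12, and -4.45 ± 1.03 without input replicate 2), and Gpihbp1, which holds lipoprotein lipase on capillary endothelium (-5.22 ± 0.96), also fell. The angiotensin receptor gene Agtr1b (-5.20 ± 0.34) and Uts2d, related to urotensin II (-5.40 ± 0.77), stood in the inputs at 5.40, 6.84 and 6.07 CPM and 2.68, 4.22 and 6.56 CPM, respectively, and in the pull-downs at 0.202 and 0.127 CPM and 0.0759 and 0.127 CPM.

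**Figure D1:**
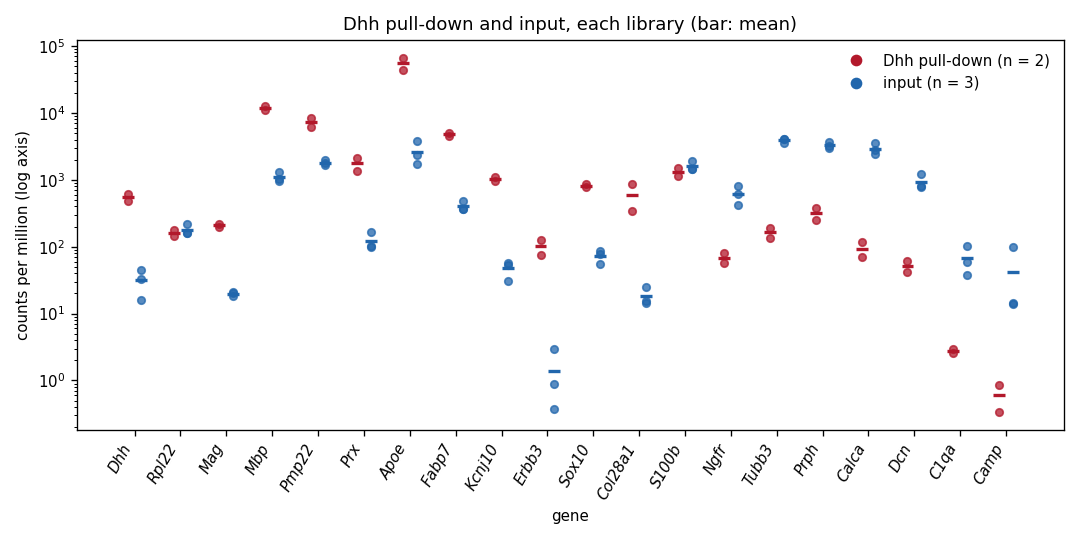
CPM (log axis) of 20 genes in each Dhh pull-down (red, n = 2) and each input (blue, n = 3), with bars at the means. Pull-down and input points are separate for glial genes such as Mag and Kcnj10 (higher) and for Tubb3, Calca and Camp (lower), and overlap for Rpl22 and S100b.

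Genes of compact myelin rose together. All 8 proteins of the list were higher in the pull-down and all passed the 2-fold test, with a median log2 change of 3.31 against 0.04 over all genes. Mbp, the basic protein of the compacted layers, stood at 12764 and 11055 CPM in the pull-downs and 1319, 1041 and 973 CPM in the inputs (3.42 ± 0.29). Pmp22, the peripheral myelin protein whose dosage is altered in inherited neuropathy, had the smallest change, 2.00 ± 0.14, from 1764, 1986 and 1655 CPM in the inputs to 6141 and 8253 CPM in the pull-downs. Pmp2, a lipid-binding protein of the sheath, changed by 3.30 ± 0.63, Mal by 3.97 ± 0.44, Pllp by 3.24 ± 0.26 and Ncmap by 2.76 ± 0.45. Summed over the list, compact myelin RNAs made up 47602 and 52782 CPM of the pull-downs and 5969, 6011 and 5715 CPM of the inputs.

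Proteins of the uncompacted myelin and of the outer and inner Schwann cell membranes were all higher as well (10 of 10, 9 past 2-fold, median 3.35). Prx (periaxin) and Drp2 join dystroglycan in the complex that ties the outer membrane of the myelin sheath to the basal lamina. Prx stood at 2136 and 1375 CPM in the pull-downs and 168, 100.1 and 101 CPM in the inputs (3.84 ± 0.46), Drp2 changed by 3.23 ± 0.25, and Dag1 stood at 428 and 650.0 CPM in the pull-downs and 26.2, 5.66 and 17.7 CPM in the inputs. In Dag1 the inputs spread widely around a low level and the pull-downs lay above all of them. Mag, the inner adhesion protein facing the axon, changed by 3.41 ± 0.43, Cnp by 3.43 ± 0.11, Cadm4 by 3.42 ± 0.13, the tight junction protein Cldn19 by 3.29 ± 0.47 and the gap junction proteins Gjb1 and Gjc3 by 2.95 ± 0.40 and 3.26 ± 0.42. Utrn (utrophin), a cytoskeletal partner of dystroglycan, changed least (0.57 ± 0.14, adjusted p = 0.000863), did not pass the 2-fold test, and was at 0.22 ± 0.15 without pull-down replicate 1 (adjusted p = 0.164).

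Proteins of the contact between axon and Schwann cell were mixed. Of 9 tested, 4 were higher and 3 lower. Gldn (gliomedin), which Schwann cells release at the node, stood at 108 and 98.9 CPM in the pull-downs and 17.1, 10.6 and 11.5 CPM in the inputs (2.98 ± 0.29). Cntnap1 and Cntn1, the axonal partners at the paranode, were lower. Cntnap1 stood at 14.6 and 13.5 CPM in the pull-downs and 163, 174 and 149 CPM in the inputs (-3.53 ± 0.18), Cntn1 changed by -1.66 ± 0.14, and the adhesion molecule L1cam by -2.05 ± 0.23. Nfasc, which encodes both a glial and an axonal isoform, was at 157 and 118 CPM in the pull-downs and 119, 103 and 113 CPM in the inputs (0.30 ± 0.19, adjusted p = 0.152), and passed only without pull-down replicate 3 (0.52 ± 0.23) among the libraries left out, and with looser filters. Gene counts do not separate such isoforms. Cadm4 and Cadm2 (0.53 ± 0.16) were higher, and Nrcam (0.33 ± 0.17) passed at an adjusted p of 0.0723. That call was lost without input replicate 2 (adjusted p = 0.2), which left 3 higher, and without either pull-down.

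Enzymes that make the lipids of myelin were enriched, 12 of 13 higher, 11 past 2-fold and 1 lower (median 1.85). Ugt8a, which makes galactocerebroside, stood at 225 and 267 CPM in the pull-downs and 33.7, 12.2 and 24.5 CPM in the inputs (3.39 ± 0.44). Its partners Fa2h, which hydroxylates the fatty acid (2.89 ± 0.37), and Gal3st1, which adds the sulfate (1.85 ± 0.18), were also higher. The largest change of the list was that of Aspa, which releases acetate from N-acetylaspartate, at 333 and 355 CPM in the pull-downs and 30.4, 21.2 and 23.6 CPM in the inputs (3.78 ± 0.45). The fatty acid desaturase Scd2 rose by 2.52 ± 0.14 from a high level, 1796, 2547 and 1955 CPM in the inputs. Degs1, the ceramide desaturase, went against the list and was lower (-0.96 ± 0.19). Sterol synthesis had a smaller median. Of its 19 tested genes 15 were higher, 7 of them past 2-fold, and the other 4 did not pass. The median was 0.92, with 14 higher without input replicate 2. Lss, which closes the sterol rings, had the largest change (3.30 ± 0.41). Idi1, an isomerase early in the pathway, stood at 33.2 and 37.5 CPM in the pull-downs and 10.4, 4.44 and 10.5 CPM in the inputs (2.06 ± 0.37), and Insig1, a sterol sensor partner, rose by 1.84 ± 0.12.

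Satellite glia markers were enriched, 13 of 13 higher and all past 2-fold (median 3.57). Apoe (chr7:19696244-19701310), the lipid carrier, stood at 44477 and 66395 CPM in the pull-downs and 2359.9, 1731 and 3741 CPM in the inputs (4.41 ± 0.65). It took 4.16 and 5.96% of the counts of genes in both tables, the largest share of any gene in each pull-down. Every pull-down lay above every input, and replicate 3 was the higher of the pull-downs. Kcnj10, the inward rectifier Kir4.1 that buffers potassium around the neuron soma, stood at 971 and 1092 CPM in the pull-downs and 58.0, 31.1 and 53.0 CPM in the inputs (4.44 ± 0.43), and its partner channel Kcnj16 changed by 4.07 ± 0.35. Fabp7, a brain-type fatty acid binding protein of immature and satellite glia, stood at 4483 and 5091 CPM in the pull-downs and 371, 363 and 478 CPM in the inputs (3.57 ± 0.47). Cdh19 was at 255 and 284 CPM in the pull-downs and 13.4, 6.14 and 7.39 CPM in the inputs, the largest change of the list. The chloride channel family gene Ttyh1 (4.19 ± 0.43), the endothelin receptor Ednrb (3.37 ± 0.41), the orphan receptor Gpr37l1 (3.70 ± 0.52), the gap junction gene Gja1 (3.45 ± 0.46) and the glutamate transporter Slc1a3 (3.40 ± 0.36) lay between. Glul, glutamine synthetase, and Aldoc, a glycolytic enzyme of glia, had the smallest changes (2.23 ± 0.19 and 2.16 ± 0.18), from input levels of 544, 871 and 624 CPM and 274, 329 and 251 CPM.

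Markers of non-myelinating and immature Schwann cells did not move as a group. Of 11 tested, 6 were higher and 5 lower. Ncam1 (2.46 ± 0.17), Cdh2 (1.65 ± 0.14), Emp1 (2.05 ± 0.41), Gfap (1.03 ± 0.43), Sox2 and Cdh19 were higher. The call of Gfap, an intermediate filament of glia, was lost without pull-down replicate 1 (0.65 ± 0.54). Ngfr, the low-affinity neurotrophin receptor, was at 79.2 and 57.1 CPM in the pull-downs and 795, 417 and 621 CPM in the inputs (-3.17 ± 0.42), and Gap43 at 40.8 and 38.3 CPM in the pull-downs and 386, 289 and 436 CPM in the inputs (-3.23 ± 0.24). Both are known from sensory neurons as well as from Schwann cells, as are L1cam and the GDNF family receptor Gfra3, which was lower too (-1.11 ± 0.19). In the Isl1 line, whose pull-down holds neuronal RNA, the change of Ngfr from its own input was 0.18 and that of Gap43 0.06. Scn7a, a sodium channel of non-myelinating Schwann cells, was at 404 and 336 CPM in the pull-downs and 461, 567 and 448 CPM in the inputs, and its fall (-0.41 ± 0.22, adjusted p = 0.0893) was lost without input replicate 2 (-0.30 ± 0.24), without pull-down replicate 3 and under every other scaling or filter tried. S100b, a common Schwann cell marker, overlapped between the fractions at 1504 and 1128 CPM in the pull-downs and 1441, 1898 and 1459.9 CPM in the inputs (-0.28 ± 0.19, adjusted p = 0.177), though it passed as lower without pull-down replicate 1 (-0.50 ± 0.24). In the Isl1 line its log2 change was -0.09.

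**Figure D2:**
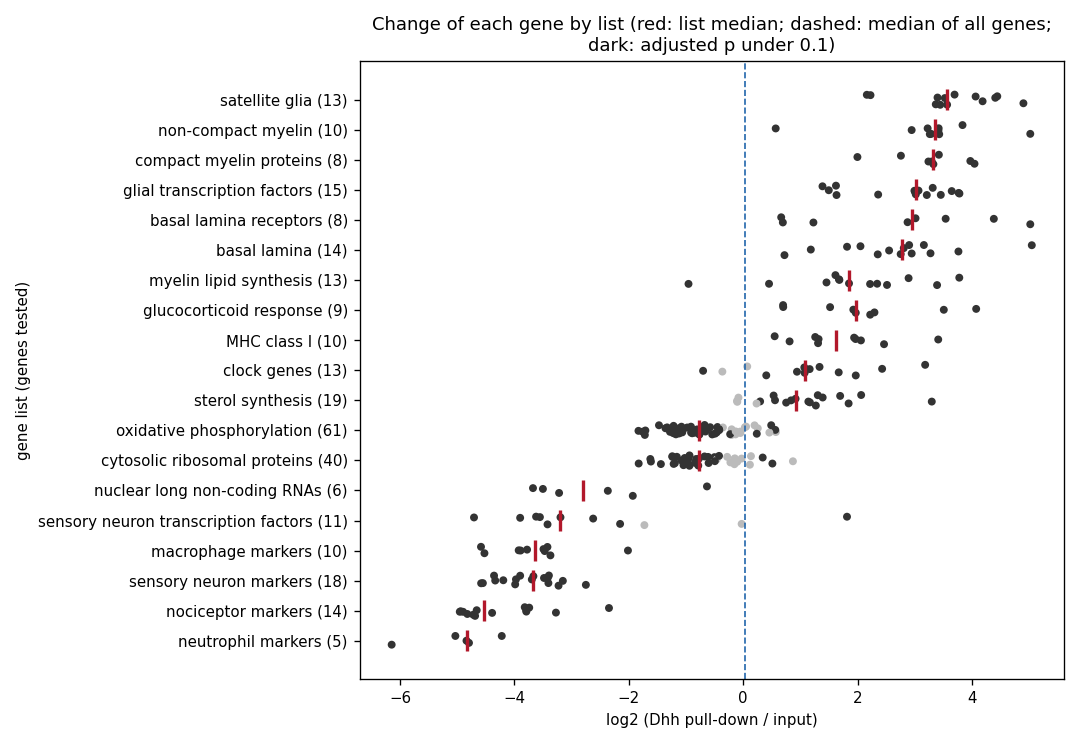
Log2 change (Dhh pull-down over input) of each gene tested, by list, with the number of genes tested in brackets. Red bars are list medians, the dashed line is the median of all genes (0.04), and grey points did not pass an adjusted p of 0.1. The glial lists shown lie to the right (satellite glia median 3.57) and neuronal and blood cell lists to the left (nociceptor median -4.52). The mixed lists of non-myelinating and immature Schwann cells and of axon-Schwann cell contact are not shown.

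Transcription factors of the glial lineage followed the markers. Of 18 in the list, 15 were tested and all were higher, 14 past 2-fold (median 3.02). Sox10 stood at 767 and 852 CPM in the pull-downs and 87.4, 55.7 and 78.2 CPM in the inputs (3.46 ± 0.37). Egr2 (Krox20) and Pou3f1 (Oct6), act with Sox10 to switch on myelin genes. Egr2 stood at 245 and 155 CPM in the pull-downs and 27.7, 27.8 and 16.1 CPM in the inputs (3.07 ± 0.55), and Pou3f1 at 87.2 and 66.8 CPM in the pull-downs and 8.36, 9.80 and 5.07 CPM in the inputs (3.31 ± 0.57). The factors known from precursors and immature glia were enriched as well, Sox2 at 312 and 333 CPM in the pull-downs and 22.7, 29.6 and 24.9 CPM in the inputs (3.65 ± 0.47) and Foxd3 by 3.77 ± 0.39. Pou3f2 (3.78 ± 0.39), Zeb2 (3.00 ± 0.20), Tead1 (3.01 ± 0.19), Yap1 (3.21 ± 0.35), Tfap2a (3.02 ± 0.27), Sox8 (1.63 ± 0.37) and Hes1 (1.39 ± 0.40) rose as well. Sox9, Pax3 and Nfatc4 were below the filter. Sox9, a factor of glia in the brain, was at 0.329 and 0.106 CPM in the pull-downs and 5.45, 8.54 and 3.57 CPM in the inputs. In the opposite direction, 8 of 11 sensory neuron transcription factors were lower and 1 higher (9 lower without input replicate 2), with Isl1 at 9.79 and 7.33 CPM in the pull-downs and 127, 129 and 127 CPM in the inputs (-3.90 ± 0.14), Tlx3 changed by -4.71 ± 0.24, Pou4f1 by -3.42 ± 0.26 and Runx1 by -2.15 ± 0.15. The ETS factor Etv4 went against the list and was higher, at 26.5 and 23.6 CPM in the pull-downs and 6.78, 9.02 and 5.55 CPM in the inputs (1.82 ± 0.25).

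Promoter sequences of the driver gene and of genes that moved are given because SOX factors were among the enriched regulators. RefSeq promoters (250 bases before to 50 after the start, GRCm38.p6) were matched by symbol for 7557 of the 10206 genes, the first entry being used where a gene has several. Those of Dhh, the driver gene, of Kcnj10 and Col28a1, enriched genes, and of Stmn3, a neuronal gene that was depleted (a log2 change of -5.02 ± 0.55), read 5′ to 3′ on the strand of the gene, with matches to ACAAAG or AACAAT (the motifs searched, on both strands) in capitals.
Dhh: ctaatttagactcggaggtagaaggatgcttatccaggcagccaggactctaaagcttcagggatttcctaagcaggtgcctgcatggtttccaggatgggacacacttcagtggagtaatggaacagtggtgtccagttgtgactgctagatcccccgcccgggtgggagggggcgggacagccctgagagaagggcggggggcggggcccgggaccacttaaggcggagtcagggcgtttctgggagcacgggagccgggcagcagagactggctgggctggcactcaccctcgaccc
Kcnj10: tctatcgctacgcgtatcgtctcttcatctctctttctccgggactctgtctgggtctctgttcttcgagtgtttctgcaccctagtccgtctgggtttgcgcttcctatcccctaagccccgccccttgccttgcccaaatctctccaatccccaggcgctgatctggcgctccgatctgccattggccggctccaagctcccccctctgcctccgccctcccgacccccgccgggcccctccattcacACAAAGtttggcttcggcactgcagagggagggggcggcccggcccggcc
Col28a1: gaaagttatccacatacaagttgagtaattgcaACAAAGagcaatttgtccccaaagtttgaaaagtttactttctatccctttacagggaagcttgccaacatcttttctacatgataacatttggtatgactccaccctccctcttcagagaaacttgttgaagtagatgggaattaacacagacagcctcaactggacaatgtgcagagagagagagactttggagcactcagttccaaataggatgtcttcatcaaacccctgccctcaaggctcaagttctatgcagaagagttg
Stmn3: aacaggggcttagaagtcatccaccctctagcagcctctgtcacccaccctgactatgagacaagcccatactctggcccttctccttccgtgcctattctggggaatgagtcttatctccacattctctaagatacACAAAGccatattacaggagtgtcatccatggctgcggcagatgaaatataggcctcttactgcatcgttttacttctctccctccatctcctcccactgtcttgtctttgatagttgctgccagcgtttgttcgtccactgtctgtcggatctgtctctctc
They lie at chr15:98898491-98898790 (minus strand), chr1:172340960-172341259 (plus), chr6:8192568-8192867 (minus) and chr2:181314451-181314750 (minus). The letters ACAAAG and AACAAT occur in sites that SOX proteins such as Sox10 and Sox2 bind. Neither was in the Dhh window, and ACAAAG was in those of Kcnj10, Col28a1 and Stmn3. Further promoters were searched and are not shown. Those of the enriched genes Prx and Fabp7 and of the depleted genes Tubb3 and Calca held neither motif, and that of the enriched gene Sox2 held ACAAAG. Over all matched genes 17.9% of promoters held at least 1 of the motifs, against 19.7% of 1638 genes higher past 2-fold and 18.0% of 1832 lower. The median GC content was 61.7% over all, 62.3% in the higher and 60.7% in the lower genes.

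Receptors that Schwann cells use to read axonal and matrix signals were enriched, while the neuregulin ligands were depleted. For Lgi4 and Adam22 the order was the other way, the ligand being higher and the receptor lower. Erbb3 (chr10:128567523-128589635), the neuregulin receptor of the Schwann cell lineage, stood at 73.9 and 128 CPM in the pull-downs and 2.93, 0.370 and 0.885 CPM in the inputs (6.14 ± 1.09, adjusted p = 2.31e-05), the largest rise of any gene tested. The inputs held few of these reads and spread widely, and the pull-downs lay above all of them. The filter averages pull-downs as well as inputs, which bears on the rank of Erbb3. Its co-receptor Erbb2 was at 133 and 109 CPM in the pull-downs and 13.6, 18.0 and 10.8 CPM in the inputs (3.10 ± 0.36). Nrg1, the neuregulin ligand that axons present, stood at 4.60 and 3.25 CPM in the pull-downs and 39.0, 24.3 and 35.6 CPM in the inputs (-3.07 ± 0.30), and Nrg2 and Nrg3 changed by -1.26 ± 0.33 and -3.31 ± 0.20. Lgi4, which Schwann cells secrete, rose by 3.53 ± 0.35, and Adam22, its receptor, fell by 2.02. Gpr126, an adhesion receptor needed for myelination, rose by 3.54 ± 0.47, the lysophospholipid receptors Lpar1 and S1pr3 by 3.26 ± 0.36 and 2.55 ± 0.22 and the phosphatase Ptprz1 by 3.16 ± 0.33. In this list 7 of 12 genes were higher and 5 lower, the last of them Pdgfb (-0.96 ± 0.29).

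In the hedgehog pathway 7 of 14 listed genes passed the filter, 4 higher and 3 lower. Besides Dhh, the signal transducer Smo was higher at 121 and 145 CPM in the pull-downs and 15.3, 12.8 and 11.5 CPM in the inputs (3.34 ± 0.40), as were the co-receptors Cdon (1.62 ± 0.25) and Gas1 (1.76 ± 0.48). Shh (-2.33 ± 0.36, and -3.87 ± 0.26 without pull-down replicate 1), the co-receptor Boc (-2.96 ± 0.29) and Disp2 (-2.91 ± 0.14) were lower. The hedgehog receptor Ptch1 was under the filter on FPKM, which averages all 29 naive libraries, and was not tested. Its levels were 39.1 and 59.8 CPM in the pull-downs and 2.27, 0.961 and 1.92 CPM in the inputs. Gli1, a target gene of the pathway, was also under it, at 1.57 and 2.32 CPM in the pull-downs and 6.73, 2.48 and 3.02 CPM in the inputs.

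Components of the basal lamina were higher in all 14 genes tested (12 past 2-fold, median 2.78). They included the laminin chains Lamb1 (3.28 ± 0.17), Lamc1 (2.55 ± 0.27) and Lama4 (2.95 ± 0.27), the type IV collagens Col4a1 (3.16 ± 0.31) and Col4a2 (2.90 ± 0.27), and the linkers Nid1 (2.75 ± 0.33) and Nid2 (3.76 ± 0.68). Lama2, the laminin chain of the Schwann cell basal lamina, was under the filter, at 50.1 and 63.5 CPM in the pull-downs and 14.1, 7.40 and 10.0 CPM in the inputs. Col28a1, a collagen of peripheral glia, stood at 344 and 859 CPM in the pull-downs and 15.3, 14.2 and 25.0 CPM in the inputs, with the pull-downs well apart from each other. Hspg2 (perlecan) changed least (0.72 ± 0.37, adjusted p = 0.0749), and its call was lost without any of pull-down 1, pull-down 3, input 1 or input 3 (lowest value 0.55 ± 0.41, without input 3) and rose to 1.09 ± 0.39 without input 2. The receptors that bind this matrix were higher in 8 of 8 cases, 5 past 2-fold, with the integrin chain Itga6 at 68.7 and 98.1 CPM in the pull-downs and 5.56, 2.11 and 4.24 CPM in the inputs (4.38 ± 0.81) and its partner Itgb4 changed by 2.88 ± 0.42. Itgb1, the integrin chain shared by most cells, changed by 0.69 ± 0.16. Of the neurotrophic factors, 5 of 13 were tested. Cntf, the ciliary neurotrophic factor of Schwann cells, was higher at 20.6 and 24.3 CPM in the pull-downs and 1.69, 0.481 and 0.794 CPM in the inputs (4.48 ± 0.70), as were Vegfa (1.37 ± 0.29) and Pspn (1.33 ± 0.32). Bdnf (-3.79 ± 0.57) and Nrtn (-1.03 ± 0.39) were lower.

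Gene families with glial and neuronal members had genes on both sides. So had all genes tested, with 43.0% higher and 42.0% lower, and a split alone does not set a family apart. Among the sodium pump subunits, which set the sodium and potassium gradients, and their FXYD modulators, 5 of 12 were higher and 7 lower. Atp1b2, a beta subunit of glia, stood at 934 and 1038 CPM in the pull-downs and 130.2, 114 and 125 CPM in the inputs (3.00 ± 0.31). Atp1b1, a beta subunit of neurons and other cells, stood at 275 and 239 CPM in the pull-downs and 1797, 1469 and 1848 CPM in the inputs (-2.73 ± 0.17), the opposite order. The FXYD modulators went both ways, with Fxyd1 (3.10 ± 0.48), Fxyd3 (3.29 ± 0.62) and Fxyd6 (1.42 ± 0.23) higher and Fxyd2 (-4.32 ± 0.27) and Fxyd7 (-3.97 ± 0.29) lower.

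**Figure D3:**
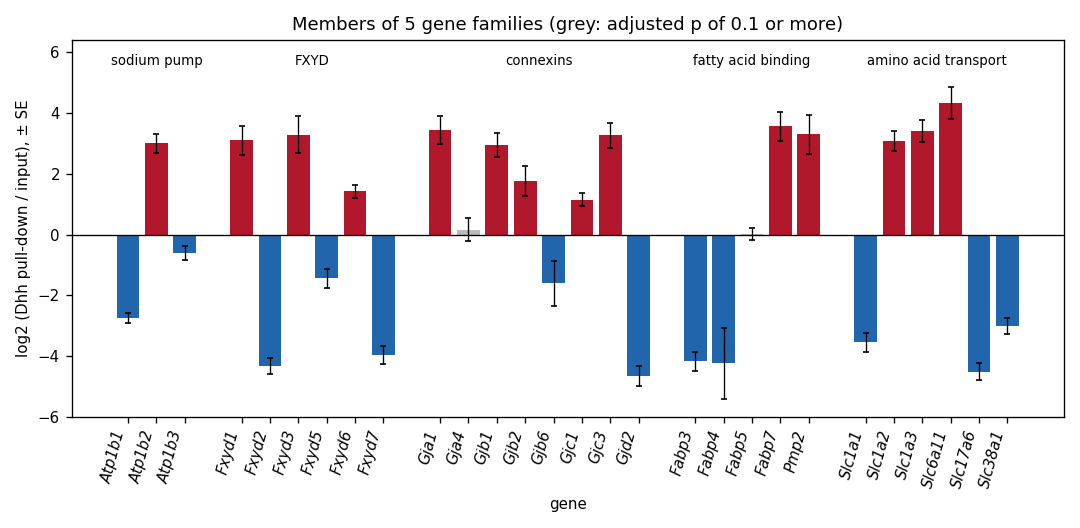
Log2 change (Dhh pull-down over input) ± SE of members of 5 gene families, with red bars for genes that were higher, blue for lower and grey for those that did not pass an adjusted p of 0.1. Each family has members on both sides of 0, such as Atp1b2 (3.00) and Atp1b1 (-2.73). Over all genes tested 43.0% were higher and 42.0% lower.

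Of the connexins, which form gap junctions, 5 of 8 were higher and 2 lower. Gja1 was at 268 and 347 CPM in the pull-downs and 31.2, 22.1 and 31.4 CPM in the inputs (3.45 ± 0.46) and Gjb1, the connexin of myelin mutated in a form of Charcot-Marie-Tooth disease, at 95.6 and 83.5 CPM in the pull-downs and 13.3, 11.9 and 9.64 CPM in the inputs. The neuronal connexin Gjd2 was lower (-4.66 ± 0.33). Of the fatty acid and retinoid binding proteins 5 of 9 were higher, with Fabp7, Pmp2 and Crabp1 (4.01 ± 0.66) past 2-fold. Fabp3, the heart form, was lower at 3.44 and 2.11 CPM in the pull-downs and 42.7, 52.0 and 54.0 CPM in the inputs (-4.16 ± 0.32). The S100 family gave 3 higher, among them S100a1 (2.73 ± 0.28) and S100a4 (2.15 ± 0.52), and 4 lower of 10, among them S100a10 (-2.63 ± 0.19). Without input replicate 2 the S100 genes gave 2 higher. Of 7 claudins tested, 3 were higher, among them Cldn19, and 2 lower (1 without input replicate 2).

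Transmitter transporters and potassium channels also had members on both sides, as had all genes (43.0% higher, 42.0% lower). Slc6a11, a GABA transporter of glia, stood at 63.2 and 85.0 CPM in the pull-downs and 4.35, 1.74 and 4.91 CPM in the inputs (4.33 ± 0.52). The glial glutamate transporters Slc1a3 and Slc1a2 (3.08 ± 0.33), Glul and the GABA transaminase Abat (2.39 ± 0.24) were higher too. Slc17a6, which loads glutamate into synaptic vesicles, stood at 20.1 and 14.7 CPM in the pull-downs and 323, 532 and 333 CPM in the inputs (-4.51 ± 0.27), and the neuronal glutamate transporter Slc1a1 (-3.54 ± 0.31) and the glutamine carrier Slc38a1 (-3.01 ± 0.26) were lower. In all 6 of 11 were higher and 5 lower. Among inward rectifier and tandem-pore potassium channels 6 were higher and 3 lower of 10, with Kcnk5 (3.12 ± 0.30) next to Kcnj10 and Kcnj16. The neuronal Kcnk18 fell by 3.79 and Kcnk12 by 3.32. Voltage-gated sodium channels were lower in 9 of 10 (8 without input replicate 2). The beta subunit Scn3b was higher (0.82 ± 0.34), a call lost without pull-down replicate 3 (0.31 ± 0.41).

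Neuronal RNA was depleted but still counted in the pull-downs. All 18 sensory neuron markers and all 14 nociceptor markers tested were lower and past 2-fold, with medians of -3.68 and -4.52. Tubb3, a neuronal tubulin, stood at 192 and 136 CPM in the pull-downs and 3538, 4134 and 4098 CPM in the inputs (-4.58 ± 0.26), and Prph (peripherin), an intermediate filament of small neurons, at 380.0 and 250.1 CPM in the pull-downs and 3032, 3215 and 3705 CPM in the inputs (-3.40 ± 0.22). Calca, the gene of the peptide CGRP, stood at 117 and 71.2 CPM in the pull-downs and 2454, 3514 and 2771 CPM in the inputs (-4.95 ± 0.39). None of these genes overlapped between the fractions, which held for 8895 of all 10206 genes tested. Over the 18 markers the mean pull-down level was 4.18 to 14.9% of the mean input level (median 7.80%), with Tubb3 at 4.18%, Thy1 at 4.27% and Avil at 14.9%. Summed, the markers stood at 2319 and 1647 CPM in the pull-downs and 28001, 26539 and 30715 CPM in the inputs, and pull-down replicate 1 held more of them than replicate 3. The origin of this remaining signal was not tested. Of the proprioceptor markers, 3 of 7 were lower, such as Pvalb (-4.82 ± 0.56), and 2 were higher, Spp1 (1.24 ± 0.23), the secreted protein osteopontin, and Ntrk3 (1.46 ± 0.31), a neurotrophin receptor. Without input replicate 2, 4 were lower.

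Markers of macrophages, neutrophils and erythrocytes were lower throughout, and those of mast cells, fibroblasts and mural cells included higher genes. Macrophage markers were lower in all 10 tested (median -3.63), with C1qa at 2.96 and 2.62 CPM in the pull-downs and 38.1, 103 and 59.4 CPM in the inputs (-4.58 ± 0.95), and the list summed to 37.0 and 15.6 CPM in the pull-downs and 182, 329 and 236 CPM in the inputs. Neutrophil markers were lower in all 5 tested (median -4.84) and erythrocyte markers in both tested. Without input replicate 2, in which these lists were highest, the counts stayed at 10, 5 and 2, while the median of the neutrophil list was -3.82 and that of the erythrocyte list -3.57 (from -4.64). Of the mast cell markers 3 were lower, for example the protease Tpsb2 (-4.72 ± 0.93), but Kit, a receptor that other cells also express, was higher at 197 and 328 CPM in the pull-downs and 65.9, 63.1 and 74.8 CPM in the inputs (1.95 ± 0.19). No T cell marker passed the filter. Endothelial markers were lower in 4 of 7, for example Emcn (-4.46 ± 0.79) and Cdh5 (-1.97 ± 0.44), and the other 3 did not pass. The tight junction gene Cldn5 stood at 29.1 and 28.6 CPM in the pull-downs and 35.6, 44.9 and 30.9 CPM in the inputs (-0.37 ± 0.65), just under the inputs, and Pecam1 at 19.4 and 31.1 CPM in the pull-downs and 13.5, 21.0 and 16.8 CPM in the inputs (0.56 ± 0.44), overlapping. Fibroblast markers gave 3 higher and 4 lower of 9. Dcn (decorin) was at 41.2 and 62.0 CPM in the pull-downs and 811, 1233 and 773 CPM in the inputs (-4.18 ± 0.53), whereas the collagens Col1a2 (1.67 ± 0.44) and Col3a1 (1.20 ± 0.44) and Mfap5 (2.42 ± 0.38) were higher. The call of Col3a1 was lost without pull-down replicate 3 (0.76 ± 0.54). Mural cell markers gave 2 higher, Pdgfrb (1.30 ± 0.15) and Cspg4 (1.49 ± 0.49), and 3 lower, among them Acta2 (-2.09 ± 0.62). The adipocyte marker tested, Cfd, was lower (-4.68 ± 0.98, and -3.65 ± 0.90 without input replicate 2).

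Genes of antigen presentation divided by class. All 10 class I genes tested, which display peptides on most cells, were higher (6 past 2-fold, median 1.63, and 2.24 without input replicate 2), with B2m, the shared light chain, at 998 and 1321 CPM in the pull-downs and 235, 349 and 250.1 CPM in the inputs (2.06 ± 0.26). Tap1, a peptide transporter, was at 57.9 and 52.8 CPM in the pull-downs and 11.8, 46.0 and 11.7 CPM in the inputs, input replicate 2 lying close to the pull-downs (1.26 ± 0.44, and 2.23 ± 0.36 without it). Near-identical members of this family, such as H2-K1 (2.46 ± 0.21) and H2-D1 (1.31 ± 0.14), can share reads and their separate values are uncertain. Class II genes of antigen-presenting cells were lower in 4 of 6, for example Cd74 at 16.1 and 20.5 CPM in the pull-downs and 159, 108 and 196 CPM in the inputs (-3.08 ± 0.65), and the loading chaperones H2-DMa (1.20 ± 0.22) and H2-DMb1 (1.88 ± 0.51) were higher. Of the interferon response genes 6 of 13 were higher, such as Isg15 (2.92 ± 0.64), and 1 lower, Stat2 (-1.003 ± 0.14), with 8 higher without input replicate 2.

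Clock genes were higher in 10 of 13 (median 1.08), with Dbp, an output gene of the clock, at 143 and 143 CPM in the pull-downs and 19.5, 11.5 and 16.3 CPM in the inputs (3.18 ± 0.51) and Per1 changed by 1.97 ± 0.17. Cry2 went against the list (-0.70 ± 0.09). The repressor Nr1d1 and the activator Arntl, whose RNAs peak at opposite times of day, were both higher (1.16 ± 0.18 and 2.43 ± 0.28). Glucocorticoid response genes were higher in all 9 tested (median 1.97), with Klf9 at 146 and 219 CPM in the pull-downs and 15.4, 5.10 and 11.8 CPM in the inputs (4.07 ± 0.89), Pdk4 changed by 3.51 ± 0.46 and Sgk1 by 2.30 ± 0.20. The immediate early genes were mixed, 5 higher and 3 lower of 12. Nr4a1, an orphan nuclear receptor, was at 506 and 517 CPM in the pull-downs and 42.0, 44.8 and 36.3 CPM in the inputs (3.64 ± 0.35), Fos changed by 1.96 ± 0.38 and Dusp1 by -1.41 ± 0.18. Without input replicate 2, 2 were lower.

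RNAs whose abundance in a ribosome pull-down need not follow cell type gave another pattern. Nuclear lncRNAs (long non-coding RNAs) were lower in all 6 tested (median -2.79), with Meg3 at 94.8 and 61.8 CPM in the pull-downs and 386, 540.2 and 285 CPM in the inputs (-2.37 ± 0.38), Rian changed by -3.50 ± 0.36 and Neat1 by -0.63 ± 0.29 (adjusted p = 0.0455). The call of Neat1 was lost with edgeR's filterByExpr, with no filter beyond 1 count and with only the compared lines in the fit, and it was lost without input 1, input 2 or pull-down 3 (-0.30 ± 0.35 in the last case), which left 5 lower without input 2. In the PGK line the same list had a median of -1.93, and in the Isl1 line -1.99. Of 75 cytosolic ribosomal protein genes listed in either fraction, 42 were listed in both and 40 were tested. Their RNAs were lower in 27 of 40 and higher in 2 (median -0.78). Of 72 nuclear genes of oxidative phosphorylation 61 were tested, and they were lower in 45 and higher in 3 (median -0.77). Few passed the 2-fold test, 5 and 6. Without input replicate 2 the lower counts were 23 and 41 and the higher counts 2 and 2. The ribosomal protein list had a median of -0.80 in the PGK line and -0.61 in the Isl1 line, and the oxidative phosphorylation list -0.32 and 0.05. Transcript length moved with the change over all genes. The median log2 change was -0.66 in the tenth of genes with the shortest transcripts (median 893 bases) and 0.49 in the tenth with the longest (7462 bases). In the PGK line these medians were -0.32 and 0.16, and in the Isl1 line -0.16 and 0.12. The part of length in the changes of these lists was not tested.

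Whether the changes were larger than those of a pull-down from all cells was asked against the PGK line, as the difference between the changes of the lines from their own inputs (an interaction term in the fit of all naive libraries). The change was higher in the Dhh line for 4000 genes (39.2%) and lower for 3914 (38.3%). All 8 compact myelin genes were among the higher ones, as were all 13 satellite glia markers, 15 of 15 glial transcription factors and 14 of 14 basal lamina genes. The log2 change of Mbp was 3.42 in the Dhh line and -0.17 in the PGK line, a difference of 3.60 ± 0.38. That of Kcnj10 was 4.44 and 0.62 (difference 3.83 ± 0.55), and that of Erbb3 6.14 and 2.65 (difference 3.49 ± 1.35). All 18 sensory neuron markers were lower in the difference, Tubb3 by -4.77 ± 0.31. Of the ribosomal protein genes 6 of 40 were higher and 2 lower, and the oxidative phosphorylation list was lower in 17 of 61. The lines differ in strain, and the effects of strain and driver cannot be told apart here.

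Against the Isl1 line, of the same strain, the change was higher in the Dhh line for 4122 genes (40.4%) and lower for 4169 (40.8%). The glial lists differed in how far their changes were opposite in the lines. Compact myelin had a median of 3.31 in the Dhh line and -3.88 in the Isl1 line, and satellite glia 3.57 and -4.25. The medians lay closer for myelin lipid synthesis (1.85 and -0.36) and for non-myelinating and immature Schwann cells (1.03 and -0.67). The log2 change of Apoe was 4.41 in the Dhh line and -4.95 in the Isl1 line (difference 9.35 ± 0.92), and that of Sox10 3.46 and -4.63 (difference 8.08 ± 0.54). Macrophage markers had negative medians in both (-3.63 and -3.26), and 1 of 10 differed, Aif1, which was lower in the Dhh line. For fibroblast markers 7 of 9 were higher in the Dhh line, whose median was -1.05 against -4.50. Dcn had values of -4.18 and -4.25 (difference 0.07 ± 0.59). Of the oxidative phosphorylation genes 35 of 61 were lower in the Dhh line and 0 higher, against 40.8% and 40.4% of all genes. Of the ribosomal protein genes 4 of 40 were lower and 5 higher.

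**Figure D4:**
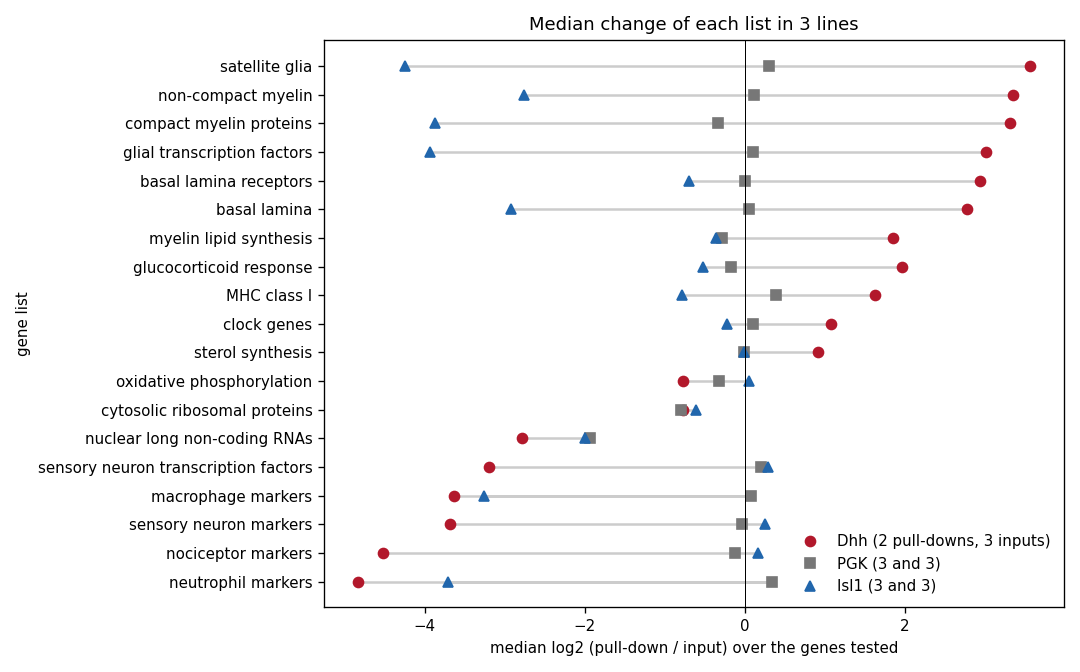
Median log2 change (pull-down over own input) of each gene list in the Dhh (red circles), PGK (grey squares) and Isl1 (blue triangles) lines. Compact myelin (3.31 and -3.88) and satellite glia are high in Dhh and low in Isl1, and myelin lipid synthesis is near 0 in Isl1 (-0.36). Macrophage markers are low in both, and the ribosomal protein medians lie together (-0.78, -0.80 and -0.61).

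What the pull-down left behind was measured in 3 supernatants of the Dhh line, given as levels because they come from a separate table, scaled with the pull-downs and inputs over the genes they share. Compact myelin RNAs summed to 4048, 4193 and 3526 CPM in the supernatants and 6201, 6031 and 5927 CPM in the inputs, and satellite glia markers to 2587, 2688 and 2927 and 4273, 3782 and 5819.7 CPM. In both lists every supernatant lay below every input, and how often this held over all genes was not counted. Sensory neuron markers summed to 33128, 27349 and 35367 CPM in the supernatants, overlapping the inputs at 29091, 26627 and 31856 CPM. The median supernatant level was 63.1% of the input for compact myelin, 70.0% for satellite glia and 109.7% for sensory neurons, against 101% over 9839 genes. Ribosomal protein RNAs stood at 72.7%, below the input in this fraction too.

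**Figure D5:**
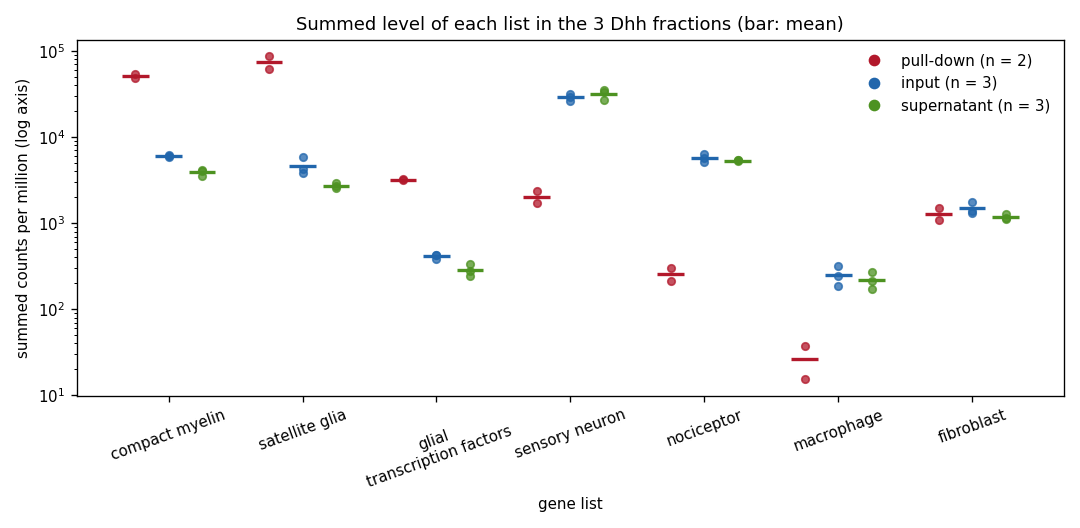
Summed CPM (log axis) of 7 gene lists in each Dhh pull-down (red, n = 2), input (blue, n = 3) and supernatant (green, n = 3), with bars at the means. Compact myelin and satellite glia are highest in the pull-downs and lowest in the supernatants, and sensory neuron markers are lowest in the pull-downs.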

How the data were processed

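Samples were grouped by the labels. Per the study's methods, rRNA was removed, cDNA was amplified and sequenced from both ends, and reads were aligned by STAR to mm10 and, where unique, counted per RefSeq gene by HTSeq. CASAVA 1.8.2, edgeR and the builds mm9 and mm10 appear in the submitters' processing notes. Strandedness of the counting was not stated, so overlapping genes may share reads. Raw counts per gene were deposited by the authors beside their normalized signal, from which only their library sizes were taken, for 1 alternative. Columns of the authors' own comparisons were not used, and 0 per-sample columns were unmatched.

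Counts of the 29 naive pull-down and input libraries of 5 lines (the genes in both tables) were fitted with edgeR 4.0.16 (R 4.3.3), with TMM scaling and the quasi-likelihood F test and 1 mean per group, glmTreat for changes past 2-fold, and Benjamini-Hochberg adjustment over 10206 genes at 0.1. The filter was a mean FPKM above 1 over these libraries, with GENCODE transcript lengths matched by RefSeq accession or symbol, and 231 genes without a length were not tested. Gene symbols turned into dates by a spreadsheet were restored. Supernatants and time-course pull-downs stand in other tables and were compared as TMM-scaled levels only. No pair of Dhh libraries of a group agreed within sampling noise (chi-square per gene 40.0 to 126). On simulated data for this comparison, over 10206 genes, 100% of 4-fold and 8-fold changes were recovered, with 6 false calls among the genes not changed.

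Genes named were Dhh and Rpl22, the 10 largest rises and falls past 2-fold with a mean count of at least 50 and no overlap, the 5 largest differences each way between lines (predicted genes, small RNA genes and pseudogenes left out), and members of gene lists. Some genes that this rule admits are not reported here. The comparison, the members and the lists were chosen with earlier results of these data known. Alternatives tried were DESeq2 1.42.0 and its size factors, the authors' library sizes, other filters, fewer lines, a replicate block and each library left out.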

Additional observations from a re-analysis of the deposited data

Results flagged for a closer look

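The changes of the Dhh line differed from those of the PGK line in 7914 genes and from those of the Isl1 line in 8291, each by an interaction term at an adjusted p under 0.1. Against the PGK line the genes furthest above included Tyrp1 (4.59 ± 1.09), Ugt8a (4.20 ± 0.59), Col28a1 (4.08 ± 0.65) and Slc43a3 (3.96 ± 0.62), Ugt8a being the enzyme of galactocerebroside synthesis. The 5 furthest below were Camp (-6.21 ± 1.47), Chi3l3 (-5.94 ± 1.32), Gpihbp1 (-5.80 ± 1.12), Lrg1 (-5.42 ± 1.21) and Ctla2a (-5.41 ± 1.13), genes of neutrophils, macrophages and endothelium among them. Several of the latter were highest in input replicate 2 of the Dhh line, such as Ctla2a at 7.67, 34.2 and 10.7 CPM and Camp at 13.8, 97.8 and 14.3 CPM. Without that library the differences were -4.63, -4.87, -5.67, -4.89 and -4.48 in the same order, and all passed.

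Against the Isl1 line the 5 furthest above were Rarres2 (9.54 ± 0.83), Tyrp1 (9.44 ± 1.22), Sostdc1 (9.38 ± 0.72), Lect1 (9.36 ± 0.76) and Apoe (9.35 ± 0.92). Rarres2, the gene of the secreted protein chemerin, stood at 246 and 349 CPM in the pull-downs and 17.3, 8.58 and 24.4 CPM in the inputs, and Sostdc1, a secreted inhibitor of BMP and Wnt signals, at 442 and 699 CPM in the pull-downs and 38.3, 21.7 and 40.1 CPM in the inputs. The 5 furthest below were Ankrd34b (-5.27 ± 0.48), Stmn3 (-5.26 ± 0.64), Rem2 (-5.23 ± 0.51), Rspo4 (-5.15 ± 0.34) and Uts2d (-5.13 ± 0.90). Stmn3, a neuronal microtubule regulator, stood at 163 and 90.6 CPM in the pull-downs and 3006, 5626 and 3689 CPM in the inputs. Tyrp1 appears in both groups. Without pull-down replicate 3 its difference from the PGK line was 1.77 ± 1.01 and no longer passed (adjusted p = 0.128). Groups held 2 or 3 libraries, and single outlying samples were not tested for.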

How the results depend on the processing

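The count of 8682 genes called lay between 8112 and 8581 when 1 library was left out, and between 8505 and 12115 under the other settings. The 2-fold count of 4770 lay between 4369 and 4720 without 1 library. With edgeR's filterByExpr in place of the FPKM filter it was 7312 of 13926 genes, and with no filter beyond 1 count 7579 of 14544, more genes being tested. The PGK difference (7914) lay between 7382 and 7886 without 1 library and the Isl1 difference (8291) between 7756 and 8233. Scaling by DESeq2's size factors or the authors' library sizes moved the median of all genes from 0.04 to 0.06 and 0.08, and DESeq2's own test called 8712 genes.

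Same-numbered pull-downs and inputs mostly varied together. Of the 14 same-numbered pairs of all lines 10 had correlated deviations (r over 0.1, median 0.49), against 7 of 28 differently numbered pairs (median -0.27). The Dhh pairs had r of -0.01 and 0.38. With 2 pull-downs the deviations are mirror images, so these values say little on pairing. By the study's methods part of each lysate was set aside as input. Whether equal numbers mark 1 lysate is not stated, and the main fit used no pairs. With the replicate number as a block the counts were 8979 called, 4886 past 2-fold, 8449 against PGK and 8757 against Isl1. With the block in a fit of only the lines compared, chosen after seeing the data, the first was 8923. Pull-down replicates 1 and 3 were left out in turn, and the lone pull-down was then assumed to vary like the other groups. Of the named genes, Rpl22 alone changed sign among the settings tried (from -0.15 ± 0.26). It was 0.00979 with the replicate block, 0.0408 with the block in only the lines compared, and -0.329 to 0.0402 with 1 library left out, above 0 without pull-down 3 or input 2. Of 222 gene results 13 had a call or sign that changed under some setting, namely Rpl22, those whose lost or gained calls are given above, and Pecam1, which passed only where the Dhh line was fitted alone (0.60 ± 0.27 without the block). Counting depth limits genes of few reads, such as Agtr1b and Uts2d in the pull-downs. With 2 pull-downs and 3 inputs, a simulated 1.5-fold change was recovered in 10% and a 2-fold change in 70% of cases. The simulation gave every gene the same spread and changed 50 genes at each fold. In the real data the spread differed between genes and 8682 were called, so these shares need not hold there. Leaving out 1 library moved the fold of further called genes by over 1.5 times, none of which lost its call or changed sign. The log2 change was then, without pull-down 1 Acta2 (-2.70), Camp (-6.94), Ccl9 (-4.78), Cfd (-3.98), Inmt (-5.88), Pvalb (-5.48), Rem2 (-5.64), Slc1a1 (-4.43), Slc1a2 (2.43), Tpsb2 (-5.43) and Tyrp1 (5.75), without pull-down 3 Camp (-5.56), Ccl9 (-7.50), Cfd (-6.20), Col28a1 (4.27), Lrg1 (-5.61), Pmp2 (2.57), Shh (-1.56) and Slc1a1 (-2.94). It was, without input 1 Cntf (5.12), Erbb3 (7.30), Nid2 (4.37), Pex11a (5.39) and Plekha7 (5.57), without input 2 Aif1 (-3.07) and Ctla2a (-4.28) and without input 3 Tyrp1 (5.97). The causes of these shifts were not tested.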

Other observations

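A further 3 naive Dhh pull-downs belong to an injury time course and stand in a separately made table, where the labels call their cells sensory neurons. Their levels were scaled together with the pull-downs described above over the shared genes and are given without a test. Mbp stood at 3574, 4065 and 4273 CPM in these pull-downs against 11809.7 and 10222 CPM in the pull-downs described above, Kcnj10 at 1788, 2046 and 1813 CPM against 898 and 1009.9 CPM, Apoe at 3562, 3576 and 4497 CPM against 41152 and 61389.8 CPM and Tubb3 at 16.9, 17.5 and 20.5 CPM against 177 and 126 CPM. Of these genes, Kcnj10 was higher in the time-course set, and Mbp, Apoe and Tubb3 were lower. No input of the time course was compared, so enrichment in that set and its cell type were not tested. The median ratio of the time-course level to the level above was 1.24 for satellite glia markers, 1.47 for the basal lamina, 0.58 for compact myelin, 0.69 for sensory neuron markers, 0.29 for cytosolic ribosomal proteins and 0.18 for oxidative phosphorylation, against 0.96 over all genes. Single genes spread widely, with ratios of 0.0756 (Apoe) to 6.77 among satellite glia markers and 0.116 to 6.71 among sensory neuron markers. Table and sample set cannot be told apart here.

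The pull-downs resembled each other closely. Of 8741 genes with a mean of at least 5 CPM in them, 15 (0.172%) were over 4-fold apart, 10 higher in replicate 3 and 5 in replicate 1. Those higher in replicate 3 included, besides Tyrp1, Mfap4 (1.09 and 12.8), Fmod (4.83 and 33.0), Igf2 (19.0 and 89.0), Igfbp2 (13.2 and 67.9) and Eln (8.75 and 35.4), genes of extracellular matrix and insulin-like growth factor signalling, each pair of values being CPM in replicates 1 and 3. Higher in replicate 1 were Serpina3g (11.6 and 0.486), Lyz2 (25.7 and 4.58), a macrophage and neutrophil lysozyme, and Shh (11.5 and 2.36). These genes were chosen after their values were seen.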
